A study of Homo sapiens with 6 samples.

Results

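The genes described here are 47 genes of glycolysis and of the hypoxia response, of 62703 genes in the table of estimated counts. They were picked by symbol from a list of gene names, and all 47 symbols were found in the table. They comprise 17 glycolytic enzymes, 5 regulatory or branch enzymes of glucose use, 4 glucose or lactate transporters, 7 subunits or regulators of the hypoxia-inducible factors (HIF) and 14 other HIF target genes. The cells are labelled HGC-27, a long-established line of human gastric carcinoma, and mRNA was sequenced from them. The shGXYLT2 group (3 libraries) carried an shRNA that lowers GXYLT2, and the shControl group (3 libraries) carried a control shRNA and is labelled wild type. All 6 libraries came from cells grown with 10% fetal bovine serum in 5% CO2, and the labels mention no low-oxygen treatment. The shGXYLT2 cells are described as stably transfected. The number of constructs, their sequence and the makeup of a line (1 clone or a pool) were not given in the sources used here. For the replicates, the labels do not state separate cultures, and p-values therefore cover the spread between libraries, which could be technical.

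Glycolysis splits glucose into pyruvate through a fixed order of enzymes, and cancer cells often run it to lactate even when oxygen is present. Most steps have several paralogous enzymes, 1 broadly expressed and others more inducible or typical of certain tissues. HIF is a pair of proteins, an alpha subunit and ARNT. With oxygen, the EGLN prolyl hydroxylases mark the alpha subunit and VHL directs its degradation, so much of the control of HIF lies in protein stability and is not seen in mRNA. When stable, HIF binds short DNA cores in target genes, among them glycolytic enzymes, glucose transporters and EGLN3.

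The HIF core was searched as ACGTG and as GCGTG, on both strands, in the RefSeq promoters of the members (250 bases before to 50 after each listed start, GRCh38.p14). Such a promoter was given for 40 of the 47 members, some with several. The palindrome CACGTG holds an ACGTG on each strand and counts as 2 matches. A promoter with ACGTG was found for 24 of these 40 members (60%) and for 32.2% of 11024 tested genes with a promoter. GCGTG was found for 24 of 40 members (60%) and 58.2% of those genes. The members had more listed promoters per gene, 1.82 against 1.46 for the tested genes, which gives each gene more chances of a match. Counted per promoter, ACGTG was in 38.4% of the members' promoters and 25.3% of those of tested genes, and GCGTG in 41.1% and 48.4%. Of the 9 members that fell, 6 had a promoter in the table, and either core was found for all 6; NDRG1, SLC2A3 and VEGFA had none there. Either core was also found for 29 of 32 members that did not pass the test and for 69.9% of tested genes. The difference between these shares was not tested. Neither core was found for EGLN3, the member that rose, nor for ARNT, P4HA2 and PGAM1, which did not pass. Bases outside these windows were not searched. The 4 promoters below show this spread: ENO2 and ALDOC, which fell, EGLN3, which rose, and PGK1, which changed by less than its error. Each is 5′ to 3′ on the gene's strand, and capitals mark the cores on either strand.
ENO2: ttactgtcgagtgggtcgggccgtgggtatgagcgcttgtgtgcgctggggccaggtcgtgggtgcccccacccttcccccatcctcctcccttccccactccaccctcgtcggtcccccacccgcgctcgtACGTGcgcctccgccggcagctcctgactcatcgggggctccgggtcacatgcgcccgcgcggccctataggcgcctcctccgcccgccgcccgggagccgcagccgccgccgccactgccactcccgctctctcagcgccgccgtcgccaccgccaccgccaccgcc
ALDOC: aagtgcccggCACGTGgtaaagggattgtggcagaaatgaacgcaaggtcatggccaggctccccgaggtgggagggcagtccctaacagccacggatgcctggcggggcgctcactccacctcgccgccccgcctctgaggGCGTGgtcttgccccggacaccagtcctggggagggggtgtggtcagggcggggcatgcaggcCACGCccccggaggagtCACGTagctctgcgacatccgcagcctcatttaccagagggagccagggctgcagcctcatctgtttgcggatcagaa
EGLN3: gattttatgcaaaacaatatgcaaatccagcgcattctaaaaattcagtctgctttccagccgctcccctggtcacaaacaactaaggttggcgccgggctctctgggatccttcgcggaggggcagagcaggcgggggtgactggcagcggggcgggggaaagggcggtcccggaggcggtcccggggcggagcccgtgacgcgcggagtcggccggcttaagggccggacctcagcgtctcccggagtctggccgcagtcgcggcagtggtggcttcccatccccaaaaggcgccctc
PGK1: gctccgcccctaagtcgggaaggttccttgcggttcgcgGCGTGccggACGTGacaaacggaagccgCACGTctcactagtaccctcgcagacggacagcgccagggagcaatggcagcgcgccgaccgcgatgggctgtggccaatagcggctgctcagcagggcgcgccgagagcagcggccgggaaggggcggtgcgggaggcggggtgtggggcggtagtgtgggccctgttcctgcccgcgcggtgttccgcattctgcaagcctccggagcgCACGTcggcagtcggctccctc
The ENO2 window is chr12:6914330-6914629 on the plus strand and holds 1 core, an ACGTG at base -118 from the start. The ALDOC window is chr17:28576846-28577145 on the minus strand and holds 1 CACGTG, 1 further ACGTG and 2 GCGTG. The EGLN3 window is chr14:33951025-33951324 on the minus strand, and neither core is in these letters. The PGK1 window is chrX:78103998-78104297 on the plus strand, with ACGTG at bases -202, -183 and 29 and GCGTG at base -211. A match is a description of letters and not of a bound site.

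The target gene was measured first. GXYLT2, which encodes a xylosyltransferase that extends O-glucose on EGF repeats, was at 5.27, 6.27 and 5.34 CPM (counts scaled to library size with TMM factors) in shGXYLT2 libraries, against 20.7, 22.8 and 20.2 CPM in shControl libraries. The mean was 5.63 ± 0.556 CPM in shGXYLT2 and 21.3 ± 1.40 CPM in shControl (SD, n = 3 each), 73.5% lower (log2 fold change -1.91, SE 0.109, edgeR adjusted p = 6.3e-10). By an exact two-sided permutation test p was 0.1, the smallest that 3 against 3 libraries allow. Library totals were 22188073 to 24898425 in shGXYLT2 and 17291138 to 22540099 in shControl, and the common biological coefficient of variation was 6.5%. Of the markers of the labelled cell type, MUC5AC, TFF1, TFF2, GKN1, GKN2 and PGC, which mark gastric lineage, had 0 counts in all 6 libraries. The other gastric markers were CLDN18, at 0.04 to 0.326 CPM and not tested, and MUC6, which rose to 4.22 ± 1.1 CPM in shGXYLT2, against 2.05 ± 0.244 CPM in shControl (SD, n = 3 each; edgeR adjusted p = 0.0029). All 8 gastric markers summed to 3.37 to 5.62 CPM in shGXYLT2 and 1.99 to 2.46 CPM in shControl. Summed epithelial markers (KRT8, KRT18, KRT19, EPCAM, CDH1) reached 3.77 to 4.71 CPM in shGXYLT2 and 4.31 to 5.39 CPM in shControl, while 4 mesenchymal markers summed to 2576 to 2751 CPM and 2697 to 2882 CPM. Most of that sum was VIM, which was not called, and FN1 within it rose to 78.7 ± 2.44 CPM in shGXYLT2, against 38.7 ± 0.187 CPM in shControl (SD, n = 3 each; adjusted p = 2.3e-09 by edgeR, log2 fold change 1.03). ZEB1, also mesenchymal, averaged 77.5 ± 13.9 CPM in shGXYLT2 and 94.3 ± 8.4 CPM in shControl (SD, n = 3 each). It was not called (log2 fold change -0.28, edgeR adjusted p = 0.19). CDH2, the last of these 4, was at 0 to 0.2 CPM and not tested. Leukocyte markers summed to at most 1.76 CPM and endothelial markers to at most 0.32 CPM in any library, with CD3E, PECAM1 and CDH5 at 0. Of 4 fibroblast markers, 2 (DCN and LUM) rose, and the list summed to 2136 to 2241 CPM in shGXYLT2 and 1915 to 2039 CPM in shControl. Most of that sum was COL3A1, not called, at 1673 ± 60 CPM in shGXYLT2 and 1581 ± 57.1 CPM in shControl (SD, n = 3 each). Low epithelial and gastric levels beside high fibroblast levels do not match an epithelial gastric identity. That identity rests here on the labels and was not tested. The part of these marker differences in the results on hypoxia and glycolysis genes was not tested.

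Across the 47 genes, 9 fell and 1 rose in shGXYLT2 cells. The falls were in the glycolytic enzymes ENO2, HK2, PFKP and ALDOC, in the glucose transporter SLC2A3 and in the HIF targets CA12, ADM, NDRG1 and VEGFA. The single rise was in EGLN3, a prolyl hydroxylase of HIF. The falls were 1.17-fold to 1.67-fold in size. In the test across all genes (edgeR quasi-likelihood, Benjamini-Hochberg adjusted p below 0.05), 1907 of 15693 genes passed (12.2%), 833 higher (5.31%) and 1074 lower (6.84%). Without shControl replicates 1, 2 and 3 the calls over all genes numbered 990, 1152 and 960. Of 46 tested members 10 passed (21.7%), 1 higher and 9 lower (19.6%). A log2 fold change below 0 was seen in 33 of 46 members (71.7%) and in 51.1% of all tested genes. The median was -0.106 for members and -0.006 for all tested genes. All 3 shGXYLT2 libraries lay below all 3 shControl libraries for 14 members (30.4%), against 15.8% of tested genes, and above them for 4 members, against 14.6% of tested genes. The member without a test was CA9, the cell-surface carbonic anhydrase often used as a hypoxia marker, which had 2 to 2.78 counts in a shGXYLT2 library and 0.91 to 4.98 in a shControl library. In bulk RNA, fewer cells with a transcript and less RNA per cell cannot be told apart.

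**Figure D1:**
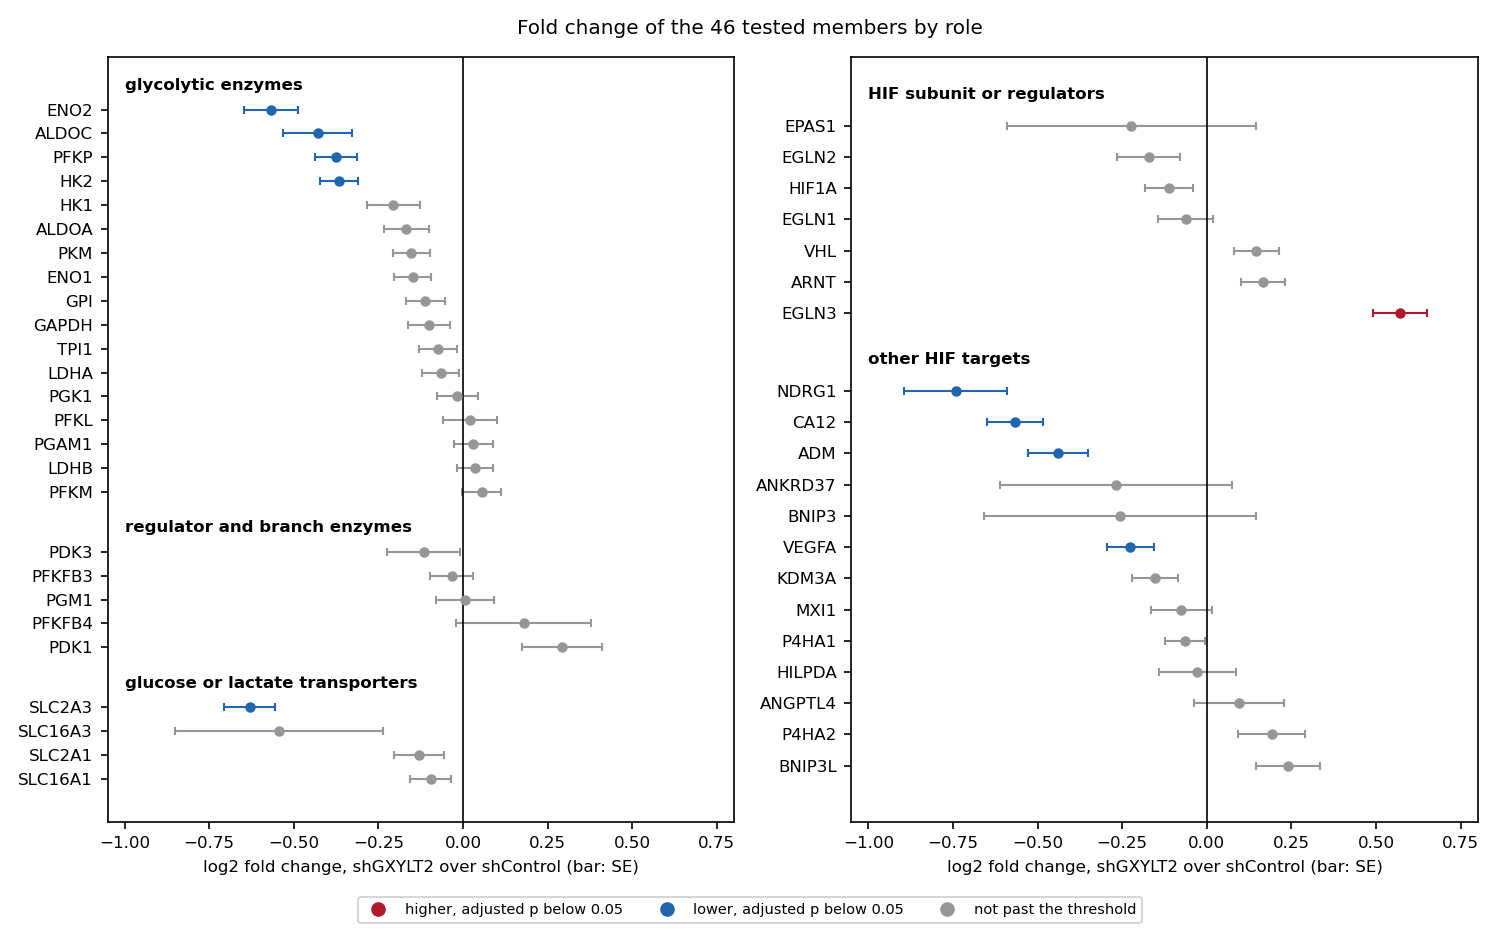
Log2 fold change of shGXYLT2 over shControl (x axis; bar, SE) for each of the 46 tested members (rows), grouped by 5 roles, with members past an adjusted p of 0.05 in blue where lower and in red where higher. Blue points, 9 in all, are spread over glycolytic enzymes, transporters and other HIF targets, and the single red point is EGLN3 at 0.57.

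Of the 17 glycolytic enzymes, 4 fell (23.5%, against 6.84% of all tested genes), none rose and 13 did not pass the test. The median log2 fold change was -0.111, against -0.006 for all tested genes, and 13 of the 17 values were below 0 (76.5%, against 51.1%). Their summed level was 17152, 16154 and 17829 CPM in shGXYLT2 libraries and 18290, 18961 and 17328 CPM in shControl libraries. These sums, 1.61% to 1.87% of a library, overlapped between the groups, and their means were 17045 ± 843 and 18193 ± 821 CPM (SD, n = 3 each), a difference of -6.31%. With 1 library left out the difference was -8.41% to -4.04%, and it was smallest without shGXYLT2 replicate 2. The 4 that fell were all among the 6 lowest of the 17 in level per kilobase of gene length, with HK1 and PFKL, which did not pass the test.

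ENO2, the enolase typical of neurons and of neuroendocrine cells, had 21, 21.8 and 22.9 CPM in shGXYLT2 libraries, against 30.5, 33.3 and 33.3 CPM in shControl libraries. The groups did not overlap, and ENO2 was 1.48-fold lower in shGXYLT2 cells (log2 fold change -0.57, SE 0.0798, edgeR adjusted p = 8.4e-05). The gene lies on chromosome 12, bases 6913745 to 6923698, on the plus strand (GRCh38, GENCODE 29), with no overlapping exon of another gene. ENO1, the widely expressed enolase, had 3489, 3219 and 3534 CPM in shGXYLT2 libraries and 3776, 3938 and 3641 CPM in shControl libraries. Every shGXYLT2 value was below every shControl value, but the difference did not pass the test (log2 fold change -0.15, adjusted p = 0.087), except without shGXYLT2 replicate 3 (adjusted p = 0.033) and with a gene length offset (adjusted p = 0.023). Per kilobase, ENO2 made up 0.496% ± 0.0288 of both enolases in shGXYLT2 and 0.661% ± 0.0412 in shControl (SD, n = 3 each).

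Hexokinase traps glucose in the cell by phosphorylating it, and HK2 is its inducible form. HK2 had 152, 144 and 145 CPM in shGXYLT2 libraries, against 190, 192 and 186 CPM in shControl libraries. The gap between the groups was wider than either group's range, and HK2 was 1.29-fold lower (log2 fold change -0.37, SE 0.0564, edgeR adjusted p = 0.00023). It lies on chromosome 2, bases 74833981 to 74893359, on the plus strand, where exons of the antisense gene AC019069.1 overlap it. HK1, the broadly expressed form, had 32.8, 31.2 and 31.1 CPM in shGXYLT2 libraries and 37.5, 39 and 33.3 CPM in shControl libraries, also without overlap, and did not pass the test (log2 fold change -0.21, adjusted p = 0.097). The HK2 share of the pair per kilobase was 76.0% ± 0.127 in shGXYLT2 and 77.9% ± 1.09 in shControl (SD, n = 3 each).

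Phosphofructokinase carries out the committed step of glycolysis, and its 3 genes are known as the platelet (PFKP), muscle (PFKM) and liver (PFKL) types. PFKP had 150, 136 and 155 CPM in shGXYLT2 libraries, against 192, 196 and 185 CPM in shControl libraries. It was 1.3-fold lower, with no overlap (log2 fold change -0.38, SE 0.0618, edgeR adjusted p = 0.00042). PFKP lies on chromosome 10, bases 3066333 to 3137712, on the plus strand, and shares exon bases with AL451164.3 on the same strand. PFKM averaged 239 ± 12.4 CPM in shGXYLT2 and 230 ± 5.28 CPM in shControl (adjusted p = 0.61), and PFKL averaged 72.9 ± 9.26 and 71.9 ± 2.26 CPM (adjusted p = 0.91). Per kilobase, PFKP was 34.2% ± 0.346 of the 3 genes in shGXYLT2 and 41.0% ± 0.326 in shControl, while PFKM was 49.5% ± 1.79 and 44.0% ± 0.601 (SD, n = 3 each).

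ALDOC, the aldolase best known from brain, had 15.7, 13.9 and 15.9 CPM in shGXYLT2 libraries, against 18.6, 23.4 and 19.3 CPM in shControl libraries. Replicate 2 was the highest of the shControl libraries, and ALDOC was 1.35-fold lower (log2 fold change -0.43, SE 0.102, edgeR adjusted p = 0.0085). Without shControl replicate 2 the call was lost (adjusted p = 0.079). ALDOC lies on chromosome 17, bases 28573115 to 28577264, on the minus strand, with the antisense gene AC005726.4 over part of its exons. ALDOA, the main aldolase of most cells, had 712, 618 and 728 CPM in shGXYLT2 libraries and 780, 818 and 714 CPM in shControl libraries, which overlap (log2 fold change -0.17, adjusted p = 0.11). It passed the test with a gene length offset (adjusted p = 0.035). ALDOC made up 2.06% ± 0.0319 of the pair per kilobase in shGXYLT2 and 2.46% ± 0.217 in shControl (SD, n = 3 each).

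The most abundant enzymes did not pass the test. GAPDH, the oxidising step of the pathway, had 4748, 4285 and 5021 CPM in shGXYLT2 libraries and 5054, 5263 and 4757 CPM in shControl libraries. These ranges overlapped (log2 fold change -0.10, SE 0.0611, edgeR adjusted p = 0.32). PKM, pyruvate kinase, had 1284, 1197 and 1320 CPM in shGXYLT2 libraries and 1426, 1451 and 1348 CPM in shControl libraries. PKM was lower in every shGXYLT2 library without passing the test (log2 fold change -0.15, adjusted p = 0.084), except without shGXYLT2 replicate 3 (adjusted p = 0.020) and with a gene length offset (adjusted p = 0.032). LDHA, which turns pyruvate into lactate, had 1782, 1839 and 1869 CPM in shGXYLT2 libraries and 1926, 2002 and 1819 CPM in shControl libraries (adjusted p = 0.49). LDHB, its paralog, had 1627, 1675 and 1677 CPM in shGXYLT2 libraries and 1624, 1684 and 1545 CPM in shControl libraries (adjusted p = 0.73). Neither LDH gene was called, yet the LDHA share of the pair per kilobase was 38.4% ± 0.224 in shGXYLT2 and 40.1% ± 0.128 in shControl (SD, n = 3 each), with no overlap. The other enzymes, GPI, TPI1, PGK1 and PGAM1, had log2 fold changes of -0.11, -0.07, -0.02 and 0.03 and adjusted p of 0.23 to 0.90. PGK1, a much used HIF target, averaged 579 ± 43.3 CPM in shGXYLT2 and 585 ± 25.4 CPM in shControl (SD, n = 3 each), and the sign of its difference changed with the scaling. GAPDH has 62 pseudogenes by name in GENCODE 29 and PGAM1 has 13, so reads of these genes may be split with copies.

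**Figure D2:**
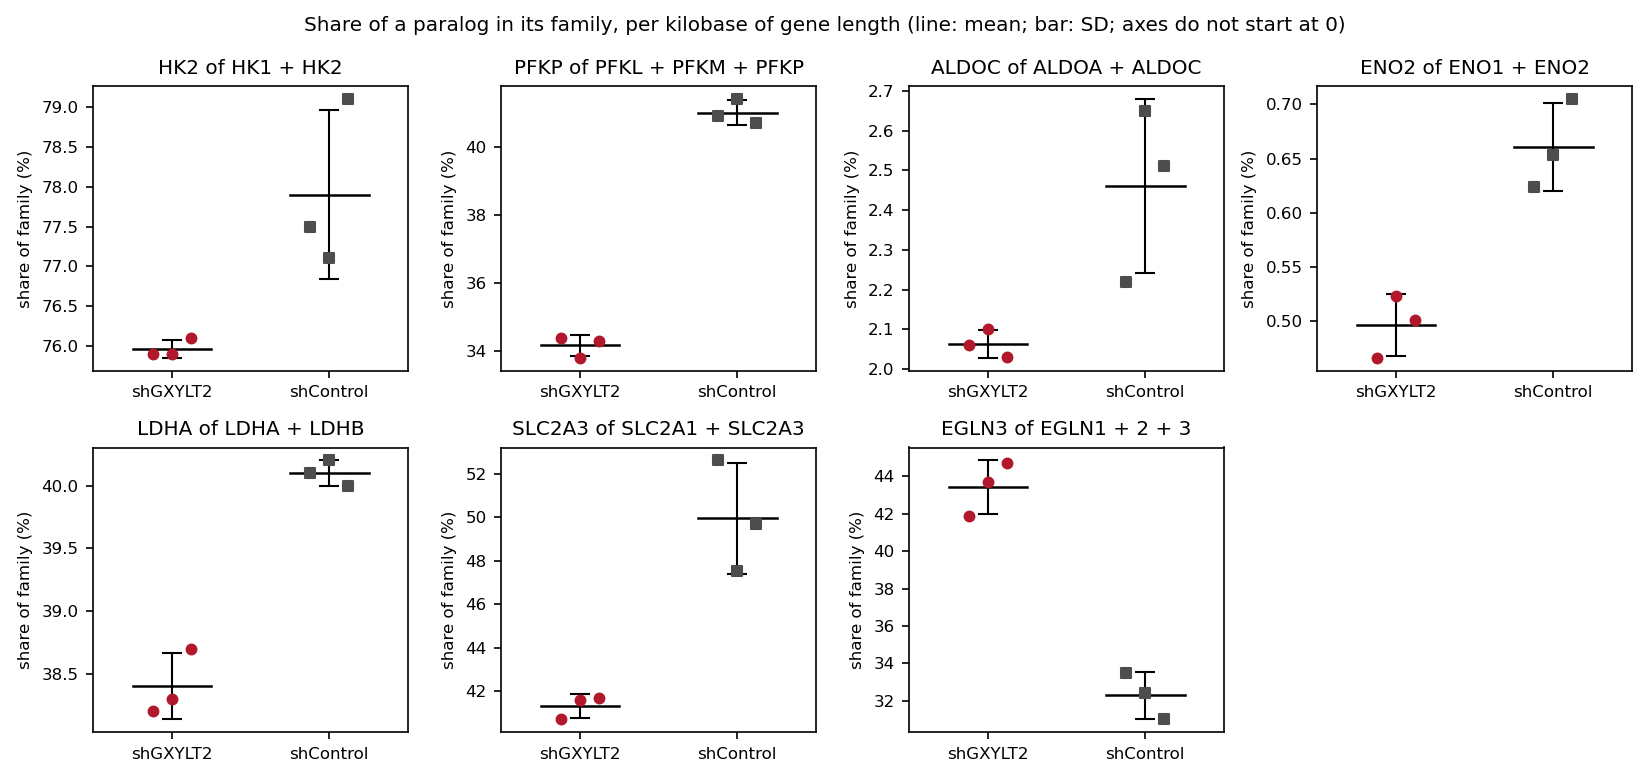
Share of 1 paralog in its family (y axis, % of summed CPM per kilobase of gene length; axes do not start at 0) in each shGXYLT2 library (circles) and shControl library (squares), with mean and SD. The EGLN3 share is higher, and every other share shown is lower, in all 3 shGXYLT2 libraries than in any shControl library. The families were chosen after the fold changes were seen, so the shares are shown without a test.

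The 5 regulatory and branch enzymes included no call and had a median log2 fold change of 0.005. PFKFB3, which makes the sugar phosphate that activates phosphofructokinase, had 64.1, 61.8 and 65.1 CPM in shGXYLT2 libraries and 66.8, 65.5 and 63.3 CPM in shControl libraries (edgeR adjusted p = 0.80). PDK1, a kinase that shuts pyruvate dehydrogenase and is a known HIF target, had 14.9, 15.7 and 12.9 CPM in shGXYLT2 libraries and 12.6, 9.67 and 13.2 CPM in shControl libraries. The ranges overlapped and PDK1 did not pass the test (log2 fold change 0.29, adjusted p = 0.12), but it was called higher without shGXYLT2 replicate 3 (adjusted p = 0.039). PGM1, which links glycogen to glycolysis, PFKFB4 and PDK3 had log2 fold changes of 0.005, 0.18 and -0.12, with adjusted p of 0.98, 0.63 and 0.55.

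Of 4 transporters 1 fell, against 6.84% of all tested genes, and all 4 had log2 fold changes below 0, against 51.1%. SLC2A3, a high-affinity glucose transporter, had 36, 33.4 and 36.2 CPM in shGXYLT2 libraries, against 59.2, 53.2 and 51.2 CPM in shControl libraries. It was 1.55-fold lower with a wide gap between the groups (log2 fold change -0.63, SE 0.0745, edgeR adjusted p = 1.1e-05), and it kept its call under all 15 alternatives. SLC2A3 lies on chromosome 12, bases 7919230 to 7936275, on the minus strand. Its near-identical paralog SLC2A14 was at 0.0133 CPM in shGXYLT2 and 0.112 CPM in shControl on average, and 3 pseudogenes carry the SLC2A3 name. SLC2A1, the broadly expressed glucose transporter and a HIF target, had 46.4, 41.3 and 44.7 CPM in shGXYLT2 libraries and 47.2, 52 and 45.8 CPM in shControl libraries. Those ranges overlapped (log2 fold change -0.13, adjusted p = 0.29). Per kilobase, SLC2A3 was 41.3% ± 0.553 of the pair in shGXYLT2 and 49.9% ± 2.55 in shControl (SD, n = 3 each). SLC16A1, a lactate transporter, had 289, 292 and 267 CPM in shGXYLT2 libraries and 317, 303 and 286 CPM in shControl libraries (adjusted p = 0.34). SLC16A3, the lactate exporter that HIF induces, averaged 0.967 ± 0.174 CPM in shGXYLT2 and 1.41 ± 0.477 CPM in shControl (SD, n = 3 each; adjusted p = 0.29).

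**Figure D3:**
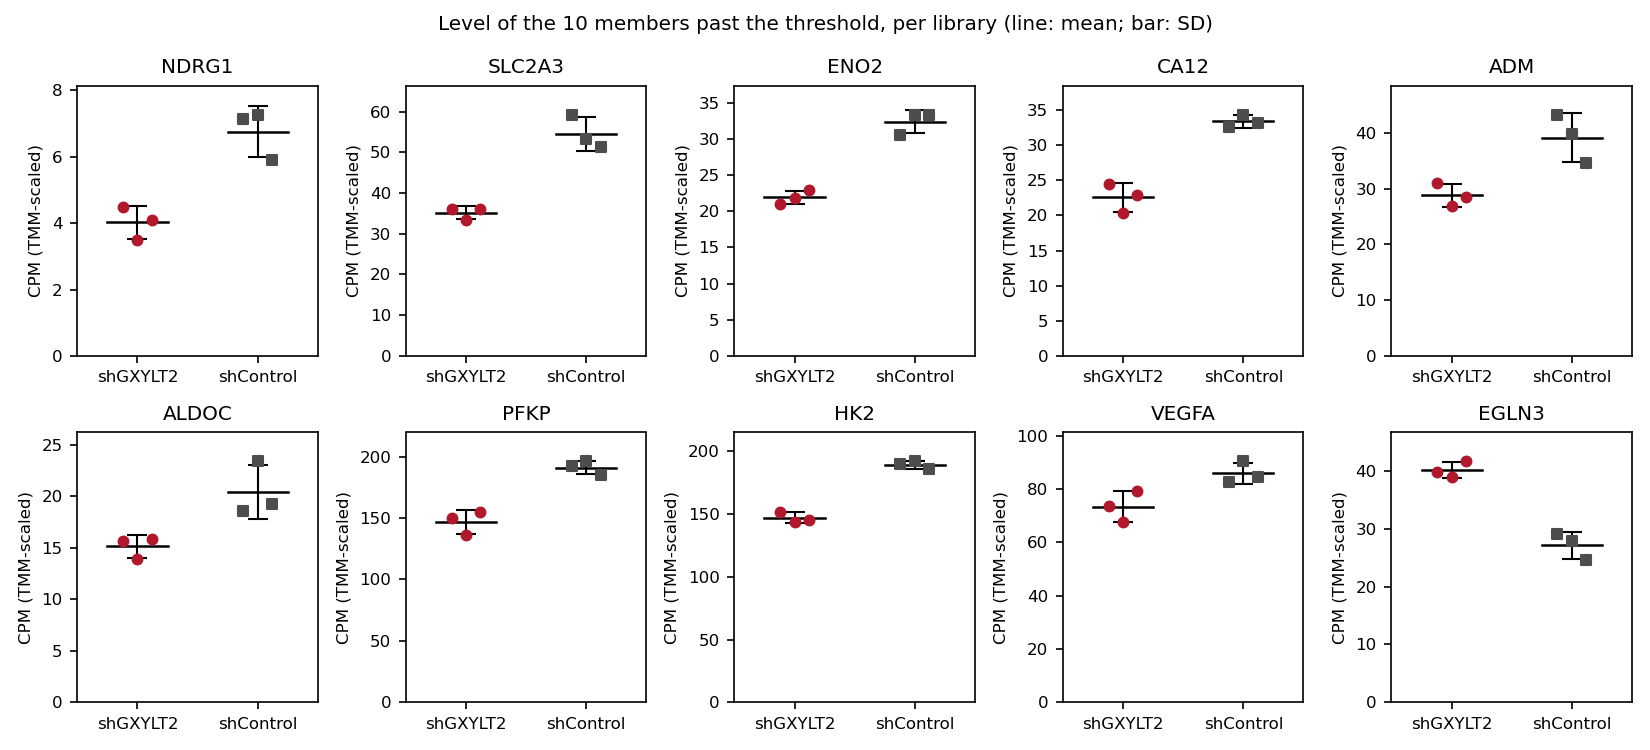
Level in CPM (y axis, TMM-scaled, from 0) of the 10 members past an adjusted p of 0.05 in each shGXYLT2 library (circles) and shControl library (squares), with mean and SD. In all 10 panels the groups do not overlap; 9 genes are lower in shGXYLT2 and EGLN3 is higher.

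Among the 7 HIF subunits and regulators, EGLN3 rose and 6 did not pass the test (14.3% called, against 12.2% of all tested genes). EGLN3 had 39.8, 38.9 and 41.6 CPM in shGXYLT2 libraries, against 29, 27.8 and 24.5 CPM in shControl libraries. It was 1.48-fold higher, without overlap (log2 fold change 0.57, SE 0.0799, edgeR adjusted p = 8.1e-05), and remained called under all 15 alternatives. The gene lies on chromosome 14, bases 33924231 to 34462774, on the minus strand. The other HIF prolyl hydroxylases did not pass the test: EGLN1, the main oxygen sensor, averaged 44.8 ± 5.43 CPM in shGXYLT2 and 46.8 ± 1.6 CPM in shControl (adjusted p = 0.69), and EGLN2 averaged 19.3 ± 2.0 and 21.8 ± 0.78 CPM (adjusted p = 0.25). EGLN3 made up 43.4% ± 1.44 of the 3 hydroxylases per kilobase in shGXYLT2 and 32.3% ± 1.26 in shControl (SD, n = 3 each). RAB4B-EGLN2, a readthrough gene, overlaps EGLN2, so its reads may be split.

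HIF1A, the widely expressed alpha subunit, had 180, 180 and 146 CPM in shGXYLT2 libraries and 182, 183 and 182 CPM in shControl libraries. Replicate 3 was the low shGXYLT2 library, and the difference did not pass the test (log2 fold change -0.11, edgeR adjusted p = 0.36). EPAS1, the other alpha subunit, averaged 0.804 ± 0.217 CPM in shGXYLT2 and 0.963 ± 0.439 CPM in shControl (adjusted p = 0.77). ARNT, the partner subunit, had 72.1, 75.5 and 77.9 CPM in shGXYLT2 libraries and 67.9, 69.1 and 63.8 CPM in shControl libraries, higher without overlap but not past the test (log2 fold change 0.17, adjusted p = 0.10). VHL, the substrate receptor of the ubiquitin ligase that removes HIF, had 66.9, 72.6 and 71.8 CPM in shGXYLT2 libraries and 60, 66.3 and 64.7 CPM in shControl libraries (log2 fold change 0.15, adjusted p = 0.17). These are mRNA levels, and HIF protein was not measured.

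Of the 14 other HIF targets, 13 were tested, 4 fell, none rose and 9 did not pass, with a median log2 fold change of -0.154. Their summed level was 456.1, 452.2 and 437.6 CPM in shGXYLT2 libraries and 497.9, 501.5 and 486.8 CPM in shControl libraries. These sums did not overlap, and averaged 448.6 ± 9.76 CPM in shGXYLT2 and 495.4 ± 7.66 CPM in shControl (SD, n = 3 each), a difference of -9.44%. The share called was 30.8% of the tested targets, against 23.5% of the glycolytic enzymes, all of them lower. Over all tested genes 12.2% were called and 6.84% were lower. The differences between these shares were not tested.

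CA12, a cell-surface carbonic anhydrase that handles acid outside the cell, had 24.4, 20.4 and 22.9 CPM in shGXYLT2 libraries, against 32.6, 34.3 and 33.2 CPM in shControl libraries. It was 1.48-fold lower (log2 fold change -0.57, SE 0.0828, edgeR adjusted p = 0.00013) and lies on chromosome 15, bases 63321378 to 63382161, on the minus strand. ADM, the precursor of the vasodilator peptide adrenomedullin, had 31, 26.9 and 28.4 CPM in shGXYLT2 libraries, against 43.2, 39.7 and 34.5 CPM in shControl libraries. The groups came closer than for CA12 but did not overlap, and ADM was 1.36-fold lower (log2 fold change -0.44, SE 0.0877, adjusted p = 0.0023; chromosome 11, bases 10304680 to 10307397, plus strand). NDRG1, a gene induced by stress and hypoxia, was the lowest in level of the called members, at 4.48, 3.5 and 4.09 CPM in shGXYLT2 libraries, against 7.13, 7.26 and 5.89 CPM in shControl libraries. It had the largest fold among members, 1.67-fold lower (log2 fold change -0.74, SE 0.153, adjusted p = 0.003). VEGFA, the angiogenic growth factor, had 73.7, 67.5 and 79.2 CPM in shGXYLT2 libraries, against 82.7, 90.4 and 84.6 CPM in shControl libraries. As a ratio of the nearest libraries, this gap was the narrowest of the 10 (1.17-fold lower, log2 fold change -0.23, SE 0.0693, adjusted p = 0.038). The VEGFA call was lost in 9 of 15 alternatives, among them leaving out shGXYLT2 replicate 1 or 2 or any shControl replicate, with adjusted p of 0.0024 to 0.18 over the leave-outs. VEGFA lies on chromosome 6, bases 43770184 to 43786487, on the plus strand, with antisense exons of AL136131.3.

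The most abundant target, P4HA1, a collagen prolyl hydroxylase subunit, had 147, 155 and 139 CPM in shGXYLT2 libraries and 158, 156 and 148 CPM in shControl libraries (edgeR adjusted p = 0.56). P4HA2, the paralogous subunit, was at 16.9 ± 1.54 CPM in shGXYLT2 and 14.8 ± 0.961 CPM in shControl (log2 fold change 0.19, adjusted p = 0.24). KDM3A, a histone demethylase, had 85.9, 88.5 and 75.4 CPM in shGXYLT2 libraries and 92.4, 89.3 and 96.2 CPM in shControl libraries, lower without overlap but not past the test (adjusted p = 0.16). BNIP3L, a receptor for the removal of mitochondria, had 33.2, 33.4 and 26.6 CPM in shGXYLT2 libraries and 24.7, 29 and 25.5 CPM in shControl libraries. It did not pass the test (log2 fold change 0.24, adjusted p = 0.11), but was called higher without shGXYLT2 replicate 3 (adjusted p = 0.0056) and without a filter (adjusted p = 0.045). HIF1A, KDM3A and BNIP3L all had their lowest value in shGXYLT2 replicate 3 among the shGXYLT2 libraries. Leaving that library out gave 14 called members, 3 higher and 11 lower, and 2347 calls among 16081 tested genes over the whole table. With all 6 libraries the calls were 10 members and 1907 of 15693 tested genes. MXI1, HILPDA and ANGPTL4 had log2 fold changes of -0.08, -0.03 and 0.10, with adjusted p of 0.66, 0.91 and 0.71. BNIP3, a relative of BNIP3L, and ANKRD37 were at most 1.09 CPM in any library, where small differences were not detectable. BNIP3 has 39 pseudogenes by name.

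**Figure D4:**
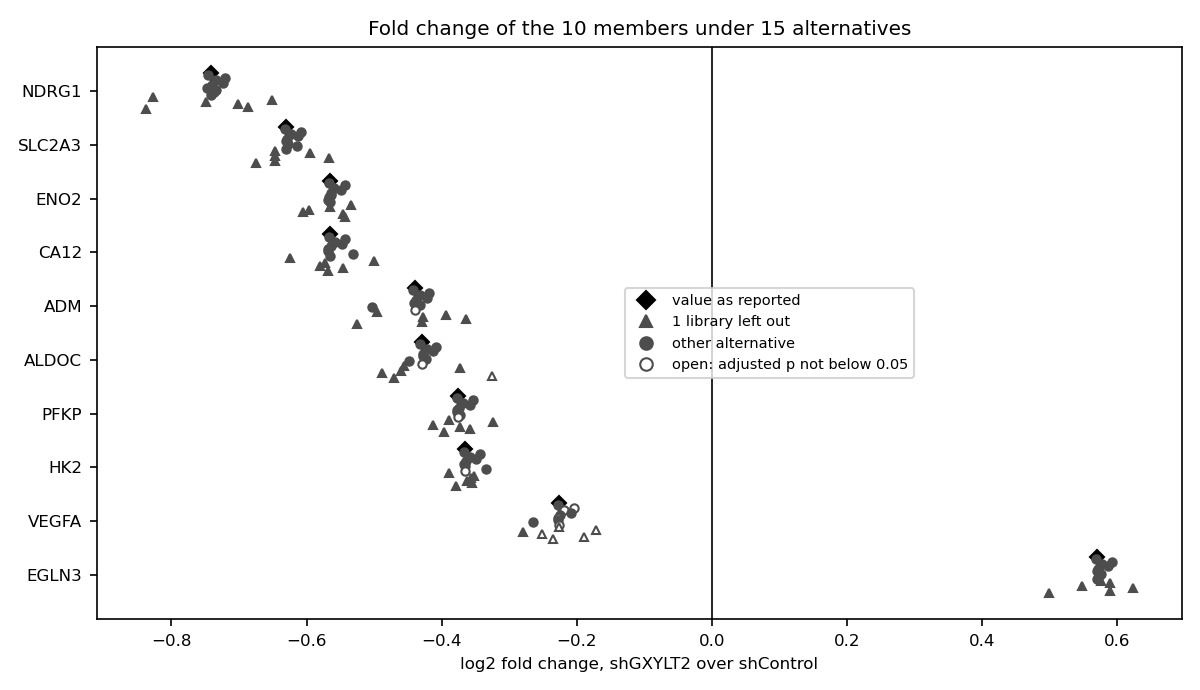
Log2 fold change of shGXYLT2 over shControl (x axis) for the 10 called members (rows), as reported (diamond), with 1 library left out (triangles) and under other alternatives (circles), where open marks did not pass an adjusted p of 0.05. No mark crosses 0, and open marks gather at VEGFA, with 9 of 15.

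A wider list of 57 genes of glucose metabolism, outside the members, had 43 tested, of which 7 fell, 1 rose and 35 did not pass, with a median log2 fold change of -0.06. The share called was 18.6% and the share lower 16.3%, against 12.2% and 6.84% of all tested genes. SLC16A7, a transporter of pyruvate and lactate, was at 37.8, 37.7 and 32.7 CPM in shGXYLT2 libraries, against 54.7, 53.8 and 63.2 CPM in shControl libraries (log2 fold change -0.67, edgeR adjusted p = 1.4e-05). The groups did not overlap. ARRDC4, an arrestin-like brake on glucose uptake, averaged 25.2 ± 1.63 CPM in shGXYLT2 and 32.6 ± 1.97 CPM in shControl (adjusted p = 0.0052). PDP2, a phosphatase that switches on pyruvate dehydrogenase, averaged 35.5 ± 2.59 and 44.9 ± 2.77 CPM (adjusted p = 0.0058), and PFKFB2, a paralog of PFKFB3, averaged 18.9 ± 2.03 and 25.2 ± 2.03 CPM (adjusted p = 0.0061; SD, n = 3 each). ARRDC4 did not pass without shControl replicate 1, nor PDP2 (adjusted p = 0.067) and PFKFB2 (adjusted p = 0.066) without shControl replicate 3. BPGM, which makes the ligand that lowers the oxygen affinity of haemoglobin, was the single rise, at 19.6 ± 1.36 CPM in shGXYLT2 and 15.9 ± 0.882 CPM in shControl (adjusted p = 0.039), and was lost in 8 of 15 alternatives, among them leaving out shGXYLT2 replicate 1 or 2 or any shControl replicate. The list's calls numbered 5 without shGXYLT2 replicate 2 and 4, 5 and 3 without shControl replicates 1, 2 and 3.

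A wider list of 49 genes of the hypoxia pathway had 45 tested, with 5 higher, 5 lower, 35 not past the test and a median log2 fold change of 0.027. The share called was 22.2% and the share lower 11.1%, against 12.2% and 6.84% of all tested genes. STC1, a secreted glycoprotein that hypoxia induces in several cell types, was at 13.5, 14.3 and 12.8 CPM in shGXYLT2 libraries, against 2.76, 3.05 and 2.86 CPM in shControl libraries. At 4.67-fold higher (log2 fold change 2.22, edgeR adjusted p = 7.8e-10), STC1 moved further than any of the 46 tested members and in the other direction from CA12, ADM, NDRG1 and VEGFA. CITED2, which competes with HIF for a coactivator, averaged 19.8 ± 0.853 CPM in shGXYLT2 and 15.1 ± 1.07 CPM in shControl (adjusted p = 0.0079). ELOB, a partner of VHL in its ubiquitin ligase, averaged 53.2 ± 4.97 and 43.6 ± 2.25 CPM (adjusted p = 0.02; SD, n = 3 each). The collagen lysyl hydroxylases PLOD1 and PLOD2 averaged 91.1 ± 6.14 and 106 ± 13.8 CPM in shGXYLT2, against 78.7 ± 2.48 and 90.0 ± 0.718 CPM in shControl (adjusted p = 0.042 and 0.047). The PLOD2 groups overlapped, at 112, 117 and 90.8 CPM in shGXYLT2 libraries and 90.8, 89.8 and 89.4 CPM in shControl libraries. CITED2 was lost in 2 of 15 alternatives, among them without shControl replicate 3. ELOB was lost in 4, among them without shControl replicate 1 or 2 and with a gene length offset, which lowered its log2 fold change of 0.28 to 0.18. PLOD1 was lost in 6, among them without shGXYLT2 replicate 1 or any shControl replicate. PLOD2 was lost in 8, among them limma-voom and leaving out shGXYLT2 replicate 1 or 2 or any shControl replicate.

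On the lower side of that list, TFRC, the transferrin receptor, was at 506, 530 and 479 CPM in shGXYLT2 libraries, against 636, 641 and 651 CPM in shControl libraries (log2 fold change -0.35, edgeR adjusted p = 0.00029). LOXL2, a collagen crosslinking oxidase, was at 29.2, 26.5 and 31.1 CPM in shGXYLT2 libraries, against 43.3, 40.3 and 38.4 CPM in shControl libraries (log2 fold change -0.49, adjusted p = 0.00042). Neither pair of groups overlapped. ARNT2, a paralog of ARNT, averaged 0.664 ± 0.118 CPM in shGXYLT2 and 2.14 ± 0.111 CPM in shControl (log2 fold change -1.67, adjusted p = 0.00042), and FLT1, a VEGF receptor, averaged 0.169 ± 0.0518 and 0.893 ± 0.0393 CPM (log2 fold change -2.38, adjusted p = 0.0011; SD, n = 3 each). Both are low in level. FLT1 had 4, 3 and 5 counts in shGXYLT2 libraries and 15, 16 and 20 in shControl libraries, and passed the filter only through the shControl group. It was not tested with a filter at 1 CPM in 3 libraries, and its call was lost with DESeq2, which gave it no adjusted p. STC2, a paralog of STC1, averaged 67.3 ± 2.53 CPM in shGXYLT2 and 77.4 ± 1.77 CPM in shControl (adjusted p = 0.041), and was lost in 11 of 15 alternatives, among them leaving out shGXYLT2 replicate 1 or 2 or any shControl replicate. Without shControl replicate 1, 2 or 3 the list had 6 calls each.

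An earlier search of these data had found the word GACTCAT in the 3′ UTRs of many genes that fell, so it was counted in the members' longest annotated 3′ UTRs (GENCODE 29, sense strand). The word was in 2 of 9 members that fell (22.2%), HK2 and ALDOC, and in 3 of 36 that did not pass (8.33%), HK1, PFKFB4 and KDM3A. Among all tested genes with such a UTR it was in 25.7% of those that fell, 5.91% of those that rose and 9.09% in all. ENO2, PFKP, SLC2A3, CA12, ADM, NDRG1 and VEGFA do not have the word in these UTRs. As the word was chosen on these fold changes, its part in the falls of HK2 and ALDOC was not tested.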

How the data were processed

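TRIzol extraction and a stranded Illumina mRNA ligation kit are stated per the labels' protocols. The submitters' processing notes name fastp, HISAT2, StringTie and GRCh38.p13. Their versions and roles, and any use of strand in counting, were not given in the sources used here. Estimated counts were what the authors deposited, in 1 table by gene, of which 12.3% were not whole, with a gene length column, taken as another unit, whose definition is not stated. Counts were rounded, filtered by group with filterByExpr, scaled by TMM factors and fitted over all 6 libraries with edgeR 4.0.16 (robust quasi-likelihood) in R 4.3.3. P-values were two-sided, with Benjamini-Hochberg adjustment over 15693 genes and a threshold of 0.05. SE is the absolute log2 fold change divided by the square root of the F statistic. The model was also run on counts simulated from the mean levels and dispersions estimated here. Such a run cannot show how well those estimates hold for separate cultures. The 15 alternatives were DESeq2 1.42.0, limma-voom (limma 3.58.1), upper-quartile factors, library totals alone, no filter, a filter at 1 CPM in 3 libraries, a replicate block, a gene length offset, a test against a 1.2-fold change, and each of 6 libraries left out. Figures were made with Python 3.11.15. CPM values are TMM-scaled, and levels per kilobase use the deposited length. The chi-square per degree of freedom was 1.95 to 3.97 between shControl libraries and 5.86 to 11 between shGXYLT2 libraries, so none was taken as a copy.

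The members and lists were chosen with earlier results of these data known. Named genes are all 47 members, GXYLT2 and up to 5 risen and 5 fallen genes by adjusted p of each wider list; SLC2A14, markers and genes overlapping members are named outside this rule. The values of 1 gene within the rule are not reported here. Positions came from GENCODE 29 and promoters from RefSeq. Titles give both groups replicate numbers 1 to 3, which did not pair the libraries. The deposited count columns are numbered with a gap in each group, so title numbers and column numbers do not always match. The column numbers that both groups share belong to title replicates 1 and 3 of each group. Across 10046 genes, deviations from the group mean correlated at r = -0.02 between the replicate 1 libraries and -0.26 between the replicate 3 libraries. No fit paired by column number was run.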

Additional observations from a re-analysis of the deposited data

How the results depend on the processing

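Of the 10 called members, ENO2, SLC2A3, EGLN3, CA12 and NDRG1 kept their call in all 15 alternatives. The test against a 1.2-fold change ended the calls of HK2, PFKP, ALDOC, ADM and VEGFA; it left 5 members, 1 glycolytic enzyme, 2 other HIF targets, 1 gene of wider glucose metabolism, 4 of the wider hypoxia pathway and 403 genes in all. A gene length offset gave 7 glycolytic enzymes. Leaving out 1 library gave 960 to 2347 genes in all, 8 to 14 members, 3 to 6 glycolytic enzymes, 3 to 10 genes of wider glucose metabolism, 6 to 11 of the wider hypoxia pathway and 0 to 1 regulatory or branch enzymes. Without shControl replicates 1, 2 and 3 the whole table had 990, 1152 and 960 calls. The replicate block gave 1471 genes and 9 members, with VEGFA lost; same-numbered libraries did not deviate together (r = -0.02, -0.21 and -0.26 across 10046 genes) and no library correlated best with its own number. The sign changed only for members that did not pass the test. PGK1 had log2 fold changes of 0.0062 with upper-quartile factors, 7e-04 without a filter and 0.0088 with a length offset. Over the leave-outs PGK1 had -0.0663 to 0.036, PFKL -0.064 to 0.1137, HILPDA -0.1376 to 0.0915, PGAM1 -0.0122 to 0.0642, PFKFB4 -0.0094 to 0.3131, PGM1 -0.0746 to 0.0538, EGLN1 -0.1472 to 0.0277 and EPAS1 -0.5202 to 0.1776. The cause was not tested. The median of all genes stayed between -0.008 and 0.028. Summed CPM kept its sign under the scalings, filters and leave-outs, and gets no value from the alternatives that change only the test or tool.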
